A study of Homo sapiens with 2 samples.

Results

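Intestinal lineage and differentiation markers, 52 genes in all, were followed in cells of the human colorectal adenocarcinoma line HCT15, which is an established line. Of the genes, 24 are listed under enterocytes, 15 under goblet cells, and 13 under endocrine, tuft or Paneth cells. They were taken by gene symbol from a fixed list, out of 19775 genes with a probe set of a single symbol, and the rule that picks them uses no measured value. The list itself was chosen with earlier results of these data known. All 52 were on the array, through 92 probe sets, and each gene is given by whichever of its probe sets was brightest on average over the arrays. The comparison was between 1 array of HCT15 cells given Cas9 and an ARID3B guide RNA, labelled an ARID3B knockout, and 1 array of HCT15 cells that received a control. Both cultures were grown in RPMI with fetal bovine serum. The sources used here do not say whether the edited cells were a clone or a pool.

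The lining of the gut is renewed from stem cells whose daughters become absorptive or secretory. Enterocytes take up nutrients and ions through a brush border of microvilli, goblet cells secrete mucins and trefoil peptides, enteroendocrine cells store hormones in granules, tuft cells sense luminal chemicals, and Paneth cells release antimicrobial proteins. CDX1 and CDX2 are homeobox factors that set intestinal identity, while ATOH1 commits a cell to the secretory fate, with GFI1 and SPDEF acting after it. Colorectal cancer lines retain these programmes to differing degrees.

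The promoters of the members that differed by at least 1.5-fold, MUC13, CDX2 and SCG5, are shown because the differences below turn on these genes. Each run is the 250 bases before the start site from RefSeq (GRCh38.p14), written 5′ to 3′ on the strand of the gene, with capitals for a match to any of 4 short motifs on either strand. MUC13 is at chr3:124934752-124935001 (minus strand), CDX2 at chr13:27969316-27969565 (minus strand) and SCG5 at chr15:32641460-32641709 (plus strand).
MUC13: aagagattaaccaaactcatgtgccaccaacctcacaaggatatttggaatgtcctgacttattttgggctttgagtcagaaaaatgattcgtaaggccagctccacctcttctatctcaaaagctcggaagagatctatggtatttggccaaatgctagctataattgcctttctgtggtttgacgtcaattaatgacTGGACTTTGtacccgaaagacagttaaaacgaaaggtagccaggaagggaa
CDX2: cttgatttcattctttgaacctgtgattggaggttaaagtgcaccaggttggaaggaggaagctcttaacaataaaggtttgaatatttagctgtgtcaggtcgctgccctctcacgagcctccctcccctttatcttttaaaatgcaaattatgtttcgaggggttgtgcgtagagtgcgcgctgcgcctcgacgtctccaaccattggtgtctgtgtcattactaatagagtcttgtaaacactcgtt
SCG5: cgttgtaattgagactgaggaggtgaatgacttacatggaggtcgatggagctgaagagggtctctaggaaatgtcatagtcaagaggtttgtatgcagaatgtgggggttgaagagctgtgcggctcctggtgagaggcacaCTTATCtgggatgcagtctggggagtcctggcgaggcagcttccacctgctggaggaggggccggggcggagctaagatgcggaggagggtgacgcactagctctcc

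The motifs were TTTATG for CDX factors, ATTAAA for the ARID3 family, CAAAGTCCA for HNF4 and GATAAG for GATA factors. They were chosen with these values and sequences already seen. The capitals in MUC13 are the HNF4 motif read on the opposite strand, ending 42 bases before the start site, and those in SCG5 are the GATA motif read on the opposite strand. CDX2 held none of the 4 in this window. Promoters were matched for 36 of the 52 members. The CDX motif was in 10 of these 36 (27.8%), against 9.64% of 35116 promoters of the same length. Its holders were FABP1, KRT20, SI, MS4A12, CLCA4, MUC2, AGR2, AGR3, REG4 and GFI1, of which MUC2, AGR2 and GFI1 were above the floor defined below. The ARID3 family motif was in 5 of the 36 (13.9%, against 11.2% of all), the GATA motif in 6 (16.7%, against 5.65%) and the HNF4 motif in MUC13 alone (2.78%, against 0.325%). The sets are unlike, since each member gave 1 promoter. The 35116 were all promoters of the reference, which were not limited to genes of the array and may repeat a gene. The 3 promoters shown held at most 1 match each, so that no overlap between motifs could arise. These are matches of letters and not binding sites.

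All values are RMA-normalised log2 values, and every difference is the knockout-labelled minus the control value. Each group had 1 array, so differences have no replicate check and no test was possible. The number of arrays sets the limit of precision. The transcript of the targeted gene was not lower: ARID3B stood at 6.09 (knockout-labelled) and 5.12 (control). These values come from 1 probe set, and a transcript value does not measure the edited sequence or the protein. Every direction below therefore rests on the labels, which the ARID3B values neither bore out nor could refute. Values were read against a floor of 4.59, the median of 54613 non-control probe sets, which is not a call of expression. Normalisation had set the medians of the arrays to 4.59 and 4.59, so a difference is relative to the other genes. The 24 probe sets of poly-A spike-ins had a mean difference of -1.19, and scaling on them moved the median of all compared genes from 0.04 to 1.24.

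Broad epithelial genes were well above the floor, which bears on the labelled cell type. The adhesion molecule EPCAM stood at 12.23 and 12.19 on the knockout-labelled and control arrays, the keratin KRT18 at 12.37 and 12.35, and the cadherin CDH1 at 10.66 and 11.11. Genes of the mature gut epithelium in the same list of 12 were not. The intestinal cadherin CDH17 stood at 4.55 and 3.95 and the galectin LGALS4 at 4.47 and 4.33, both under the floor on both arrays. GPA33, a surface antigen of the intestinal epithelium, stood at 4.99 (knockout-labelled) and 4.42 (control), above the floor only on the first.

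Most of the lineage markers were dim on both arrays. Of the 52 members, 17 were above the floor on the knockout-labelled array, where 62.9% of all genes were, and 17 on the control array, where 62.7% of all genes were. These were largely the same genes, with 15 above the floor on both arrays (60.7% of all genes), 2 only on the knockout-labelled and 2 only on the control array. A total of 19 members (36.5%) were above it on at least 1 array, against 64.9% of all genes. Only 5 members (9.62%), CDX2, SPDEF, AGR2, GFI1 and AVIL, were at least 1 log2 unit above it on both arrays, against 48.0% of all genes. In bulk RNA, fewer cells of a type and less RNA per cell cannot be told apart.

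**Figure D1:**
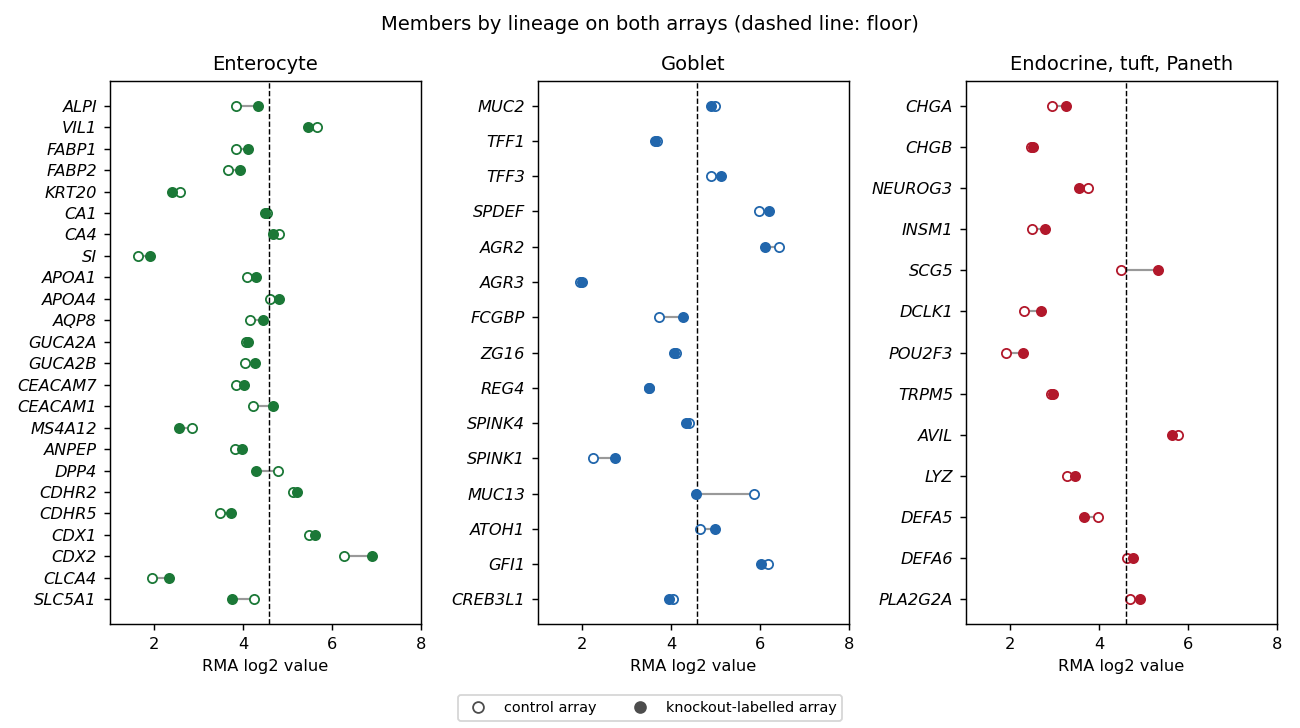
RMA log2 value (horizontal axis) of each of the 52 members on the control array (open circles) and the knockout-labelled array (filled circles), in 3 panels by lineage, with the floor of 4.59 as a dashed line. Most pairs lie left of the floor and close together, and MUC13, SCG5 and CDX2 have the widest gaps among those that reach it.

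Genes listed as markers of other tissues gave a rough guide to what the floor admits. Whether each of them is absent from gut epithelium was not checked. CYP3A4 of the liver list, for 1, stood at 5.78 (knockout-labelled) and 5.65 (control), above the floor on both arrays. Of 39 measured markers of stomach, liver, fibroblasts, leukocytes and endothelium, 15 (38.5%) were above the floor on at least 1 array and 5 (12.8%) were at least 1 log2 unit above it on both. Those shares were close to the shares of the lineage markers, 36.5% and 9.62%. The other-tissue genes furthest above it included the collagen COL1A1 (7.12 (knockout-labelled) and 6.87 (control)) and the endotoxin co-receptor CD14 (6.54 and 6.51). The COL1A1 probe set given has an ID that marks possible cross-hybridisation. Of the 5 COL1A1 probe sets, 2 were higher and 3 lower, with differences from -2.47 to 0.25. The pan-leukocyte gene PTPRC (2.72 and 2.48) and the endothelial cadherin CDH5 (2.07 and 2.17) were far under the floor. No lineage list reached the 64.9% of all genes, at 33.3% for enterocyte, 46.7% for goblet and 30.8% for endocrine, tuft and Paneth members. Whether a member just above the floor was expressed was not tested.

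**Figure D2:**
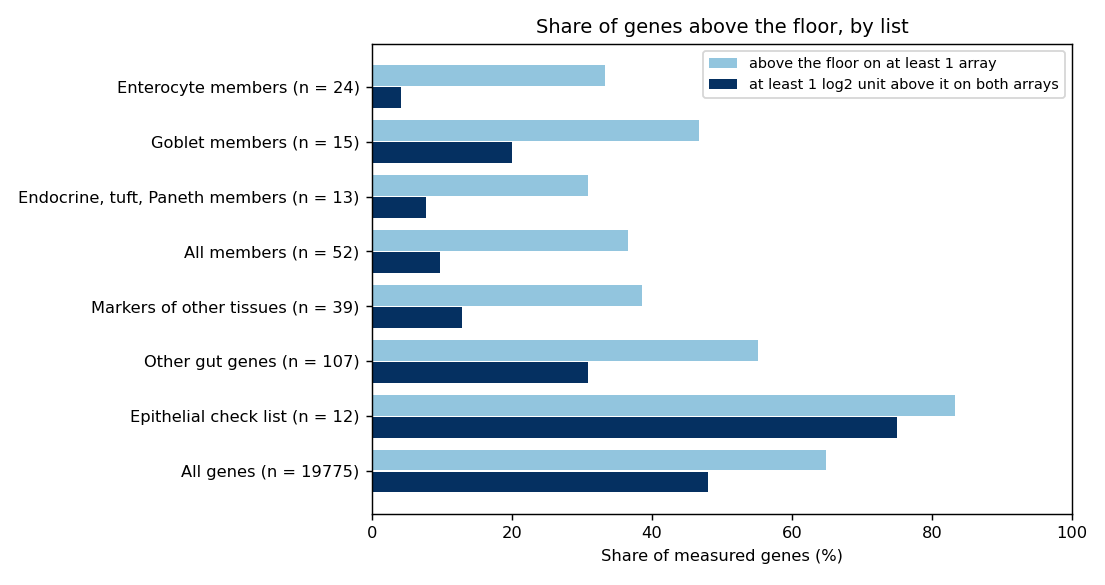
Share of measured genes (%) above the floor on at least 1 array (light bars) and at least 1 log2 unit above it on both arrays (dark bars), for the members by lineage and for the lists set beside them. The members' bars (36.5% and 9.62%) are near those for markers of other tissues (38.5% and 12.8%) and shorter than those for all genes (64.9% and 48.0%).

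Genes were counted as past 2-fold by the difference of their values, also where 1 value was under the floor. Among the 19 members above the floor on at least 1 array, none was 2-fold higher on the knockout-labelled array, where 1.05% of 12841 compared genes were. MUC13 alone was 2-fold lower, where 3.79% of compared genes were. At 1.5-fold, CDX2 and SCG5 were higher (5.83% of compared genes) and MUC13 was lower (10.5% of compared genes). In sign, 11 of the 19 were higher and 8 lower, and 52.9% of compared genes were higher. Scaled on the spike-ins, 18 of the 19 were higher and MUC13 alone was lower, so the directions below hold relative to the other genes. The median difference of the 19 was 0.13, beside 0.04 for all compared genes. Of the 9 with several probe sets, 6 had every probe set on the same side, namely VIL1, DPP4, CDX2, SPDEF, MUC13 and AVIL, where 48.1% of such compared genes did.

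The enterocyte markers were described first by their regulators. CDX2, the homeobox factor of intestinal identity, stood at 6.91 (knockout-labelled) and 6.27 (control), a difference of 0.64 or 1.55-fold. Its other probe set, at 4.61 and 3.86, differed the same way by 0.75, although only the knockout-labelled value reached the floor, just above it. A difference of 0.64 or more upward was found in 4.65% of compared genes, and the spread of differences among genes of like expression was 0.40 (scaled median absolute deviation). CDX1, its paralogue, stood at 5.62 and 5.49, a difference of 0.14. The CDX factors were thus both above the floor on both arrays, CDX2 with the larger difference.

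Among the members, 3 are structural genes of the microvillus. VIL1, which encodes the actin-bundling protein villin, stood at 5.45 (knockout-labelled) and 5.66 (control), a difference of -0.21. The 3 dimmer VIL1 probe sets were under the floor on both arrays and lower as well, with differences of -0.997, -1.05 and -0.39, so that the mean of its probe sets differed by -0.66. CDHR2, a protocadherin of the links between microvilli, stood at 5.22 and 5.13 in its single probe set. Its partner CDHR5 was under the floor, at 3.73 and 3.47. Of 21 measured brush border genes outside the members, 8 were above the floor, 6 of them higher and 2 lower, with a median difference of 0.18 and none past 2-fold. Those furthest apart, chosen after their values were seen, were EPS8, an actin regulator (9.55 and 8.78, 1.70-fold higher), and EZR, the membrane linker ezrin (11.13 and 10.63, 1.41-fold higher, with all 5 probe sets higher).

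Of the digestive and surface enzymes, DPP4, a peptidase of the brush border, was above the floor only on the control array. It stood at 4.30 (knockout-labelled) and 4.79 (control), at least 1.15-fold lower with the floor in place of the lower value. All 3 DPP4 probe sets were lower, with differences of -0.49, -0.52 and -0.60, and the last pair was under the floor throughout. CA4, a membrane-bound carbonic anhydrase, stood at 4.67 and 4.80, and APOA4, a lipoprotein component, at 4.80 and 4.61, all within 0.5 of the floor. The other CA4 probe set, under the floor at 3.88 and 3.83, was higher by 0.05, so that no direction is read for CA4. The adhesion molecule CEACAM1 stood at 4.68 and 4.22, at least 1.06-fold higher, but its 4 other probe sets were under the floor and differed by -0.15, 0.10, -0.18 and 0.22.

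The other 16 enterocyte markers were under the floor on both arrays, with values from 1.64 to 4.53. They covered the alkaline phosphatase ALPI, the fatty acid binding proteins FABP1 and FABP2, the keratin KRT20, the carbonic anhydrase CA1, sucrase-isomaltase (SI), the apolipoprotein APOA1, the water channel AQP8, the peptide hormones GUCA2A and GUCA2B, CEACAM7, MS4A12, the aminopeptidase ANPEP, CDHR5, CLCA4 and the sodium-glucose transporter SLC5A1. Their differences ran from -0.50 (SLC5A1, 3.74 and 4.24) to 0.48 (ALPI, 4.33 and 3.84), and no fold is given where both values are under the floor. KRT20 stood at 2.40 and 2.58 and SI at 1.91 and 1.64, both far below it on both arrays. The 8 members above the floor had a median difference of 0.11, and of 0.015 when the arrays were scaled on ribosomal protein genes. Under that scaling CEACAM1 fell under the floor, and the median of the 7 members left was -0.0096.

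**Figure D3:**
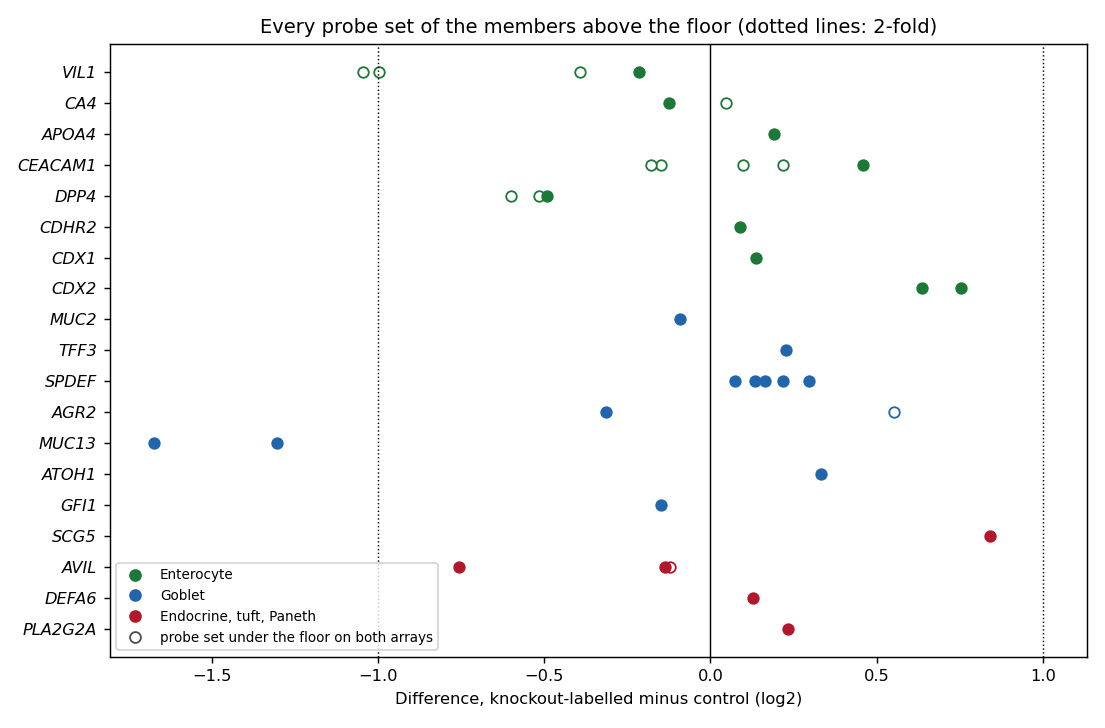
Difference between the knockout-labelled and control arrays (log2, horizontal axis) for every probe set of the 19 members above the floor, with open circles for probe sets under the floor on both arrays and dotted lines at 2-fold. Both MUC13 probe sets lie beyond the lower line (-1.30 and -1.67), those of CDX2 lie together at 0.64 and 0.75, and those of CA4, CEACAM1 and AGR2 fall on both sides of 0.

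Goblet markers held the member with the largest difference. MUC13, a transmembrane mucin of the gut epithelium, stood at 4.55 (knockout-labelled) and 5.86 (control), a difference of -1.30. The knockout-labelled value was just under the floor, so that MUC13 was at least 2.41-fold lower with the floor in its place. The other MUC13 probe set stood at 3.75 and 5.42, a difference of -1.67 and at least 1.78-fold lower. Only 1.95% of compared genes were lower by as much as 1.30, and the spread among genes of like expression was 0.26. Both probe sets have IDs that mark a possible match to several transcripts. Scaled on the poly-A spike-ins, the MUC13 difference shrank to -0.12 while all genes moved up.

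The regulators of the secretory fate were above the floor on both arrays, although ATOH1, in its single probe set, by only 0.07 on the control array. ATOH1, the factor that commits cells to secretory lineages, stood at 4.99 (knockout-labelled) and 4.66 (control). GFI1, a repressor that acts after ATOH1, stood at 6.02 and 6.17. SPDEF, an ETS factor of goblet cell maturation, stood at 6.19 and 5.97, and its 5 probe sets were all higher, by 0.08 to 0.30. All 5 SPDEF probe sets have IDs that mark possible cross-hybridisation, and they may share target sequence. The differences of ATOH1 (0.33), GFI1 (-0.15) and SPDEF (0.22) were within or near the spread among genes of like expression, which was 0.31 for ATOH1 and 0.40 for the others.

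Secreted goblet products were mostly dim. MUC2, the gel-forming mucin of the colon, stood at 4.90 (knockout-labelled) and 4.99 (control), and the trefoil peptide TFF3 at 5.13 and 4.90. AGR2, a disulfide isomerase needed for mucin folding, stood at 6.11 and 6.42, a difference of -0.31. Its dimmer probe set, under the floor at 3.73 and 3.18, differed by 0.55 the other way, so that no direction is read for AGR2. Under the floor on both arrays were TFF1, AGR3, FCGBP, ZG16, REG4, SPINK4, SPINK1 and CREB3L1, with values from 1.96 to 4.40. Of these FCGBP, a mucus-binding protein, had the largest gap, at 4.27 and 3.73. The brightest REG4 probe set had the same value, 3.51, on both arrays, as did 6.73% of all non-control probe sets. The median difference of the 7 goblet markers above the floor was -0.09, which turned to 0.12 with the mean of probe sets. For the same 7 it was 1.09 with scaling on the spike-ins.

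Endocrine, tuft and Paneth markers included 4 above the floor. SCG5, the granule protein that assists a prohormone convertase, stood at 5.32 (knockout-labelled) and 4.49 (control). With the control value under the floor it was at least 1.66-fold higher, and the difference of 0.84 rests on a single probe set. A difference of that size upward was found in 1.99% of compared genes. No other endocrine member reached the floor, with the granins CHGA at 3.24 and 2.94 and CHGB at 2.50 and 2.47. The endocrine factors NEUROG3 (3.53 and 3.75) and INSM1 (2.79 and 2.48) were also under it, so that SCG5 stood alone among the 5 endocrine members. Of 21 measured endocrine genes outside the members, 7 were above the floor on both arrays, 3 of them higher, 3 lower and 1 equal.

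Of the 4 tuft members, AVIL alone was above the floor. It encodes advillin, an actin regulator of the villin family, and stood at 5.63 (knockout-labelled) and 5.77 (control). A further AVIL probe set stood at 5.04 and 5.80, a difference of -0.76 or 1.69-fold lower, against -0.14 in the brightest, whose ID marks possible cross-hybridisation. The last AVIL probe set, under the floor at 3.29 and 3.41, differed by -0.12. The tuft master factor POU2F3 (2.28 and 1.90), DCLK1 (2.70 and 2.31) and the cation channel TRPM5 (2.96 and 2.91) were far under the floor. Among Paneth markers, the defensin DEFA6 stood at 4.76 and 4.63 and the secreted phospholipase PLA2G2A at 4.91 and 4.68, both within 0.5 of the floor. Lysozyme (LYZ, 3.46 and 3.27) and DEFA5 (3.66 and 3.98) were under it. The median difference of the 4 members above the floor was 0.18.

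**Figure D4:**
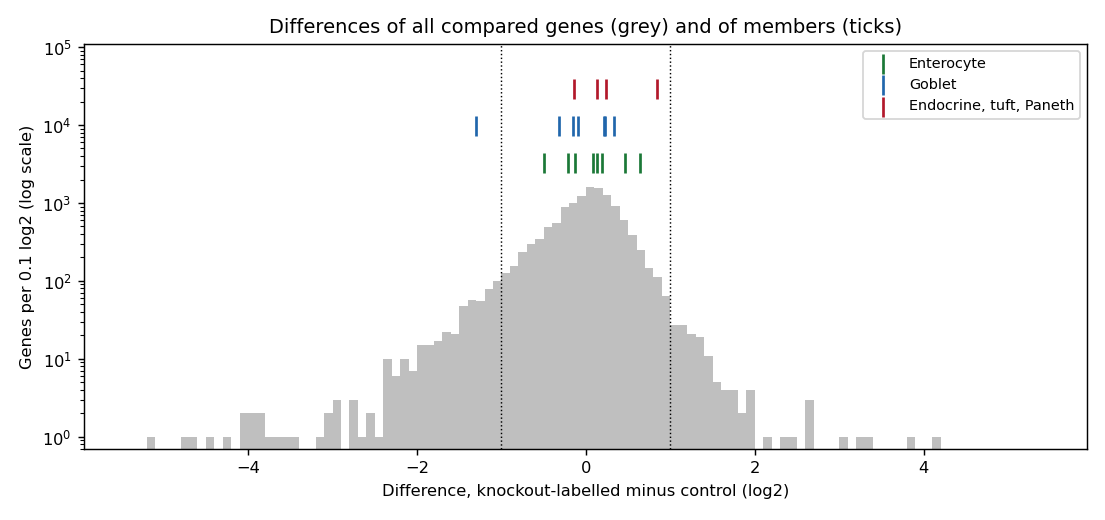
Number of compared genes by difference between the knockout-labelled and control arrays (log2, grey bars, log vertical axis), with a tick for each of the 19 members above the floor, in rows by lineage, and dotted lines at 2-fold. Of the ticks, 18 lie between the lines and MUC13, at -1.30, lies beyond the lower one.

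By lineage, the medians were 0.11 for 8 enterocyte, -0.09 for 7 goblet and 0.18 for 4 endocrine, tuft and Paneth members. The ranges overlapped, from -0.49 to 0.64, from -1.30 to 0.33 and from -0.14 to 0.84. The lineages are those of the fixed list. It places CDX1 and CDX2, factors of intestinal identity, with enterocytes, and MUC13, a mucin of the gut epithelium, with goblet cells. CDX2 (0.64) and MUC13 (-1.30) set ends of their ranges. With 1 array per group the differences between lineages could not be tested.

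Further gut genes outside the 52 were read from 6 lists covering transcription factors, brush border, mucus, endocrine, tuft and Paneth genes. Of 107 measured genes, 59 (55.1%) were above the floor on at least 1 array. Among these 59, 2 were 2-fold higher (3.39%, against 1.05% of compared genes) and 5 were 2-fold lower (8.47%, against 3.79%). The lists were chosen with earlier results of these data known, so these shares are no test against all genes. Their median difference was 0.09. No brush border, endocrine or Paneth gene of these lists was past 2-fold, and the other 3 lists held all 7. Of the 7, 6 were also past 2-fold with the floor in place of any value under it, and HNF4G was not.

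Transcription factors supplied 3 of the 7. BCL6, a repressor, stood at 8.75 (knockout-labelled) and 7.12 (control), 3.10-fold higher, and all 3 of its probe sets were higher. EHF, an epithelial ETS factor, stood at 7.31 and 8.90, 3.01-fold lower, with all 6 probe sets lower and differences of -2.01 to -0.76. HNF4G, a nuclear receptor of the enterocyte, stood at 3.73 and 5.22, at least 1.55-fold lower against the floor, and its other probe set was lower too, with a difference of -0.56. HNF4A was not analysed here. BCL6 was thus higher, and EHF and HNF4G lower, in every probe set of each gene.

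Mucus and tuft genes supplied the rest. GALNT3, which starts mucin-type glycan chains, stood at 9.15 (knockout-labelled) and 7.77 (control), 2.61-fold higher, while its dim second probe set differed by 0.11. SYTL2, a vesicle-trafficking protein, stood at 9.40 and 10.44, 2.06-fold lower. IL17RB, a subunit of a cytokine receptor, stood at 7.28 and 8.66, 2.60-fold lower, with all 3 probe sets lower and differences of -1.38 to -1.31. PTGS1, the constitutive cyclooxygenase, stood at 5.03 and 6.16, 2.20-fold lower, but 1 of its 4 probe sets differed by 0.07 upward. The IL17RB and PTGS1 probe sets given have IDs that mark possible cross-hybridisation. Those of GALNT3 and SYTL2 have IDs that mark a possible match to several transcripts. For all 7 genes the difference is relative to the other genes under the authors' normalisation.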

How the data were processed

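Total RNA was measured on 1 Affymetrix array per group. The authors deposited log2 values. Per the submitters' processing notes they came from RMA, whose version the notes do not state. RMA corrects background, quantile-normalises arrays and summarises each probe set, which removes differences in total RNA and compresses differences of dim probe sets. The sources used here do not name the arrays that were normalised as one set.

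Of 54613 non-control probe sets, 41091 had 1 gene symbol in the platform annotation, 1801 several and 11721 none, and the last kinds were not used. The symbols of all 52 members were unchanged in RefSeq (GRCh38.p14). Each gene took its brightest probe set by mean value, and was compared when its higher value was at or above the floor (12841 of 19775 genes). Where a value was under the floor, a bound against the floor replaced the fold. The spread was a scaled median absolute deviation in 10 bins of mean expression. Every member was accounted for. Those above the floor were given in full, and other lists by counts and up to 4 genes past 2-fold. Members and lists were chosen with earlier results of these data known. The alternatives tried were dropping the floor, raising it to the 75th percentile, the mean of probe sets, leaving out probe sets with IDs ending in _s_at or _x_at, removing a loess trend (span 0.3), scaling on ribosomal protein genes or poly-A spike-ins, adding 64 linear units, and thresholds of 1.5-fold and 3-fold. The scripts were tested on simulated data and run in Python 3.11.15 with pandas 2.3.3, numpy 2.4.6 and statsmodels 0.14.6. The simulated differences were planted only in genes brighter than any member, so the simulation does not cover values near the floor.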

Additional observations from a re-analysis of the deposited data

How the results depend on the processing

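No paired analysis was possible because each group had 1 array. With 1 array per group, the spread between replicates is unknown. A median was taken as moved when it changed by over 0.1 or changed sign. This limit was below the spread among genes of like expression, 0.26 to 0.40 for the members above the floor. Of 56 alternative values of the lineage medians and member counts, 38 stayed within that limit or within 1.5 times, which describes the processing only. Some of the 38 were fixed beforehand. Scaling changed only the knockout-labelled values, so the count of members above the floor on the control array could not move. The floor at the 75th percentile left 1 member above it on the knockout-labelled array and 0 members on the array of control cells, so that the enterocyte median was that of CDX2 alone, 0.64, no other lineage had a value, and 0 members were 2-fold lower. Scaling on ribosomal protein genes gave an enterocyte median of -0.0096 over 7 members, without CEACAM1. Scaling on the poly-A spike-ins raised all genes: 40 members were above the floor on the knockout-labelled array, 33 were 2-fold higher and 0 lower (75.1% and 0.274% of 16061 compared genes), and the medians were 1.38 (20 enterocyte), 1.13 (13 goblet) and 1.32 (7 endocrine, tuft and Paneth members). The mean of probe sets gave a goblet median of 0.12. Adding 64 linear units gave 0.054 for endocrine, tuft and Paneth markers and 0 members 2-fold lower. Without probe sets ending in _s_at or _x_at, 46 members had a probe set left, of which 11 were above the floor on the control array and 0 were 2-fold lower, since both MUC13 probe sets have such IDs. At 1.5-fold 2 members were higher, and at 3-fold 0 were lower. Scaling of single members was added after the data were seen.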

Other observations

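MUC1 and ELF3, chosen after their values were seen, were lower in each of their 3 probe sets without passing 2-fold in the brightest. MUC1, a transmembrane mucin like MUC13, stood at 5.04 (knockout-labelled) and 5.90 (control), 1.81-fold lower. ELF3, an epithelial ETS factor related to EHF, stood at 6.11 and 6.91, 1.74-fold lower. The transcription factors GATA6 (8.30 and 7.94), KLF5 (9.21 and 8.91) and SOX9 (9.86 and 9.60), also chosen after their values were seen, were well above the floor on both arrays and differed by 0.36, 0.30 and 0.26. The second probe set of GATA6 had the same value on both arrays, that of KLF5 differed by 0.18 and that of SOX9 by -0.06.

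Of 92 member probe sets, 26 reached the floor on at least 1 array and 5 had the same value on both arrays. Across all 23 members with several probe sets, 10 had every probe set on the same side.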
